A study of Mus musculus with 460 samples.

Results

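The cells described here were 100 single cells that resembled pericytes and carried high Cxcr4 transcript levels, out of 460 sequenced cells (21.7%, exact Clopper-Pearson 95% interval 18.1 to 25.8). They were chosen by 3 measured values: a cell was taken when its Rgs5 count was above its Pdgfra count and its Cxcr4 level was at least 100 counts per 1000000 of the cell's own counts (CPM). All 460 cells were labelled as cancer-associated fibroblasts (CAFs) of mice with lung adenocarcinoma. All came from KrasLA1 mice per the labels, 1 genetically engineered strain that develops lung tumours. No normal lung, no untreated control and no second genotype was part of the comparison, and the labels name neither the animals, their age and sex, nor any culture or sort. The labels call the cells tCAFs and do not say what the prefix stands for. Because no animal is named, the 460 cells count as 1 sample. The cells are not replicates, so levels carry intervals for counting error only and no difference was tested across animals.

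Pericytes are mural cells that wrap the capillary wall beneath the endothelial basement membrane, and they share PDGF receptor beta signalling with fibroblasts. RGS5 shortens signalling through G protein-coupled receptors and marks pericytes in many tissues, whereas PDGF receptor alpha marks most lung fibroblasts. CXCR4 is the receptor of the chemokine CXCL12 and is best known from leukocytes, stem cells and sprouting endothelium. NOTCH3, the KATP channel of KCNJ8 and ABCC9, and the gap junction protein GJA4 are parts of the mural cell's own signalling and electrical coupling.

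The rule itself set the values of 3 genes, which are given as a description. Cxcr4 in the 100 cells ran from 104.3 to 1467 CPM around a median of 456.5. The other cells with Rgs5 above Pdgfra (22.4% of the 460), called Cxcr4-low pericyte-like cells below, had no Cxcr4 count in 49 cells, a median of 8.58 CPM and a highest value of 99.7. Near the limit the lowest members had 104.3, 111.8 and 114.5 CPM, and the highest cells left out had 99.7, 99.3 and 80.5. Few cells sat near the limit, since 5 members and 9 Cxcr4-low cells lay between 50 and 150 CPM. Rgs5 had a median of 6773 CPM in the members, 3466 in the Cxcr4-low cells and 261.6 in the cells with Pdgfra at or above Rgs5 (55.9% of the 460), called Pdgfra cells below. Pdgfra had medians of 151.1, 399.5 and 1769 CPM in the same order. The Cxcr4-low cells therefore held more of a mixed profile: in 31 of them (30.1%) the Rgs5 count was within 2-fold of the Pdgfra count, against 0 of 100 members. Of the Pdgfra cells, 39 (15.2%) likewise had a Pdgfra count within 2-fold of Rgs5. These 31 and 39 cells are called mixed cells below, and values without the mixed cells leave out both, while all members stay.

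**Figure D1:**
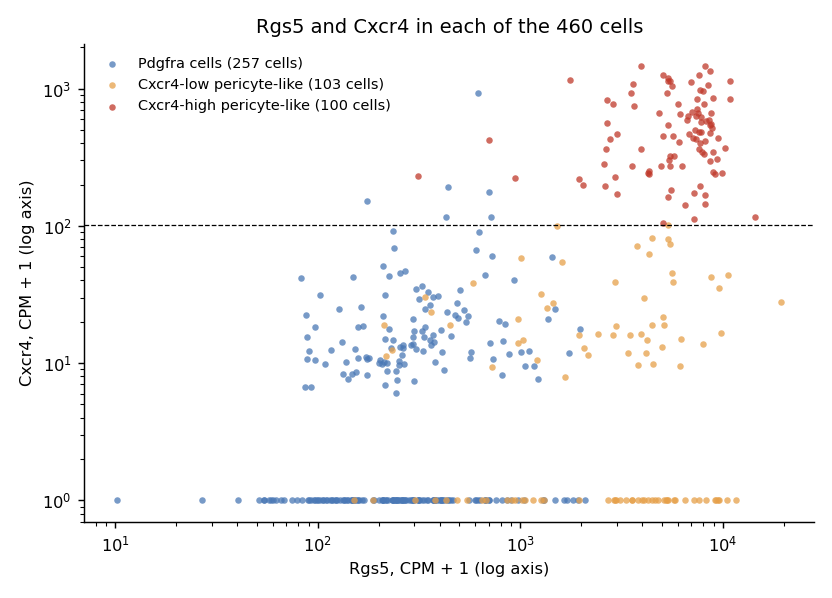
Cxcr4 level against Rgs5 level, each in CPM plus 1 on a log axis, with 1 point per cell for the 100 Cxcr4-high pericyte-like cells, the Cxcr4-low pericyte-like cells and the Pdgfra cells; the dashed line is the limit of 100 CPM. Members fill the upper right, with Cxcr4 from 104.3 to 1467 CPM, and 6 Pdgfra cells lie above the line at lower Rgs5.

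Members had between 29185 and 201705 counts each (median 76895.5) and a median of 7384 genes with a count. The Cxcr4-low cells were alike in depth (median 78512 counts, 7136 genes), and the Pdgfra cells were deeper (median 96654 counts, 8042 genes). The mitochondrial share of counts had medians of 2.55%, 2.24% and 2.04%. A run of columns of the deposited table, 27.6% of all, carried little Sftpc, the surfactant transcript of alveolar type 2 cells that was otherwise spread over most cells. This run was seen in the data and no label describes it. It held 34% of the members, 29.1% of the Cxcr4-low cells and 24.5% of the Pdgfra cells. Among genes that mark CAFs, Col1a1, Col1a2 and Pdgfrb had a count in every cell of all 3 sets.

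Throughout, the level of a gene in a set of cells is the sum of its counts per 1000000 summed counts, also in CPM, with an exact Poisson 95% interval where given, and 2 sets are compared by the log2 ratio of these levels with 1 CPM added to both. A gene is called higher or lower when it is past 2-fold. Among 9829 genes with at least 10 CPM over all cells, 1.88% were higher in members than in Cxcr4-low cells and 500 genes (5.09%) were lower. Against Pdgfra cells 4.28% were higher and 729 genes (7.42%) were lower. These shares describe sets that the rule chose on the same cells, and both comparisons share the 100 members. All cells include the members, so a gene low in both other sets could pass the filter through the members alone. This favours calls of higher genes, and Cysltr1, Ptprc and Adcy8 are examples below. Counts for gene lists are to be read beside these shares, and 1 gene of a short list is no result about its family. Some genes are in more than 1 list, such as Dcn, Col14a1, Abcc9, Gja4, Heyl and Acta2, so the lists are not separate results. Many of the extreme genes were carried by few cells: 5 cells gave over 50% of the counts for 42.7% of the genes higher against Cxcr4-low cells, while this held for 8.30% of all compared genes within the members. A count in at least 50% of the members was found for 47% of those higher genes, and these broadly detected genes are described first. The lower genes leaned on few cells more often. For 58.8% of the 500 genes lower against Cxcr4-low cells, 5 Cxcr4-low cells gave over 50% of that set's counts. Within the Cxcr4-low cells this held for 7.79% of all compared genes. Without the 5 highest cells of each gene and set, 72% of the 500 stayed past 2-fold. The 500 are therefore not to be read as broad differences as a set.

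Other markers of the pericyte label were read as a description. They were chosen with earlier results of these data known, so they are no independent check of the label. Gja4, Higd1b and Notch3 were all counted in 72 of 100 members (exact interval 62.1% to 80.5%), in 29.1% of the Cxcr4-low cells (20.6 to 38.9) and in 1.95% of the Pdgfra cells (0.635 to 4.48). With all cells thinned to 56586 counts, which left out 13 members, 19 Cxcr4-low and 14 Pdgfra cells as too shallow, the shares were 59.8%, 26.2% and 0.823%. All 3 were missing in none of the members, none of the Cxcr4-low cells and 1.95% of the Pdgfra cells. Of 20 pericyte genes compared, the same 3 included, 16 were higher in members than in Pdgfra cells and 1 was lower, with a median log2 ratio of 2.33 against 0.014 over all genes compared. The lower one was Lamc3, a laminin chain. Against Cxcr4-low cells 6 of the 20 were higher (Higd1b, Gja4, Abcc9, Cox4i2, Rgs4 and Kcnj8), none was lower, and the median was 0.57 against 0.0043 over all genes. Without the mixed cells only Higd1b and Gja4 of these stayed past 2-fold, so this count of 6 became 2, and Cox4i2 went from 1.07 to 0.75.

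Higd1b, a mitochondrial inner membrane protein of the hypoxia-induced HIG1 domain family that marks lung pericytes, ran from 0 to 759.96 CPM over the members with a median of 154.9. The median Cxcr4-low cell and the median Pdgfra cell had no Higd1b count, and the highest of each reached 496.2 and 200.8 CPM. The ranges overlapped, but 91% of members had a count against 44.7% and 19.8%. Summed levels were 166.7 CPM (158.03 to 175.7), 39.6 and 3.90, which gives log2 ratios of 2.05 and 5.10. Gja4, which encodes connexin 37, had a median of 60.4 CPM and a maximum of 803.6 in members, against medians of 0 and maxima of 463.1 in Cxcr4-low and 124.7 in Pdgfra cells. The highest cells of all sets overlapped with the members, while the shares of cells with a Gja4 count were 75%, 47.6% and 10.5%. Its summed levels of 125.97, 38.2 and 1.83 CPM gave log2 ratios of 1.69 and 5.49.

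5 further genes stood out for being both broad in the members and far higher than in either other set. Clstn2, a calsyntenin of the cadherin superfamily known from synapses, had a median of 294.4 CPM in members (0 to 1165), 8.96 in Cxcr4-low cells (up to 711.03) and 0 in Pdgfra cells (up to 249.9). Its summed level was 312.8 CPM (300.8 to 325.04) against 71.3 and 13.6, log2 ratios 2.12 and 4.42, and 92% of members had a count. Nearly all members were thus positive, while the 2 other sets mixed positive and empty cells. Itih5, a hyaluronan-binding heavy chain of the inter-alpha-trypsin inhibitor family, was the most uneven of the 5. Members ran from 0 to 2992 CPM around a median of 43.9, the medians of both other sets were 0, and 70% of members had a count against 41.7% and 44.4%. Its summed levels of 359.8, 30.3 and 25.8 CPM gave log2 ratios of 3.53 and 3.75. 5 cells held 32.3% of its member counts, so the sum leans on high cells more than for Clstn2 (16.5%).

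Adcy8 encodes an adenylyl cyclase that calcium and calmodulin stimulate. It ran from 0 to 1359 CPM in members with a median of 26.5, and its summed levels were 173.4, 29.2 and 3.43 CPM in members, Cxcr4-low and Pdgfra cells. A count was found in 63%, 29.1% and 20.6% of cells, and 5 cells held 73.2% of the counts of the Cxcr4-low set. Sstr2, a somatostatin receptor, had a member median of 70.6 CPM (0 to 902.3) and summed levels of 148.7, 42.5 and 4.09 CPM. Plxdc1, also called tumour endothelial marker 7 and a receptor of the angiogenesis inhibitor PEDF, had a member median of 76.1 CPM (0 to 836.6) and summed levels of 153.4, 43.9 and 3.78 CPM. Both had a median of 0 in the other 2 sets. Log2 ratios against the Cxcr4-low and the Pdgfra cells were 2.53 and 5.30 for Adcy8, 1.78 and 4.88 for Sstr2, and 1.78 and 5.01 for Plxdc1. All 7 genes stayed past 2-fold in both comparisons under every alternative run, inside and outside the columns low in Sftpc included.

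**Figure D2:**
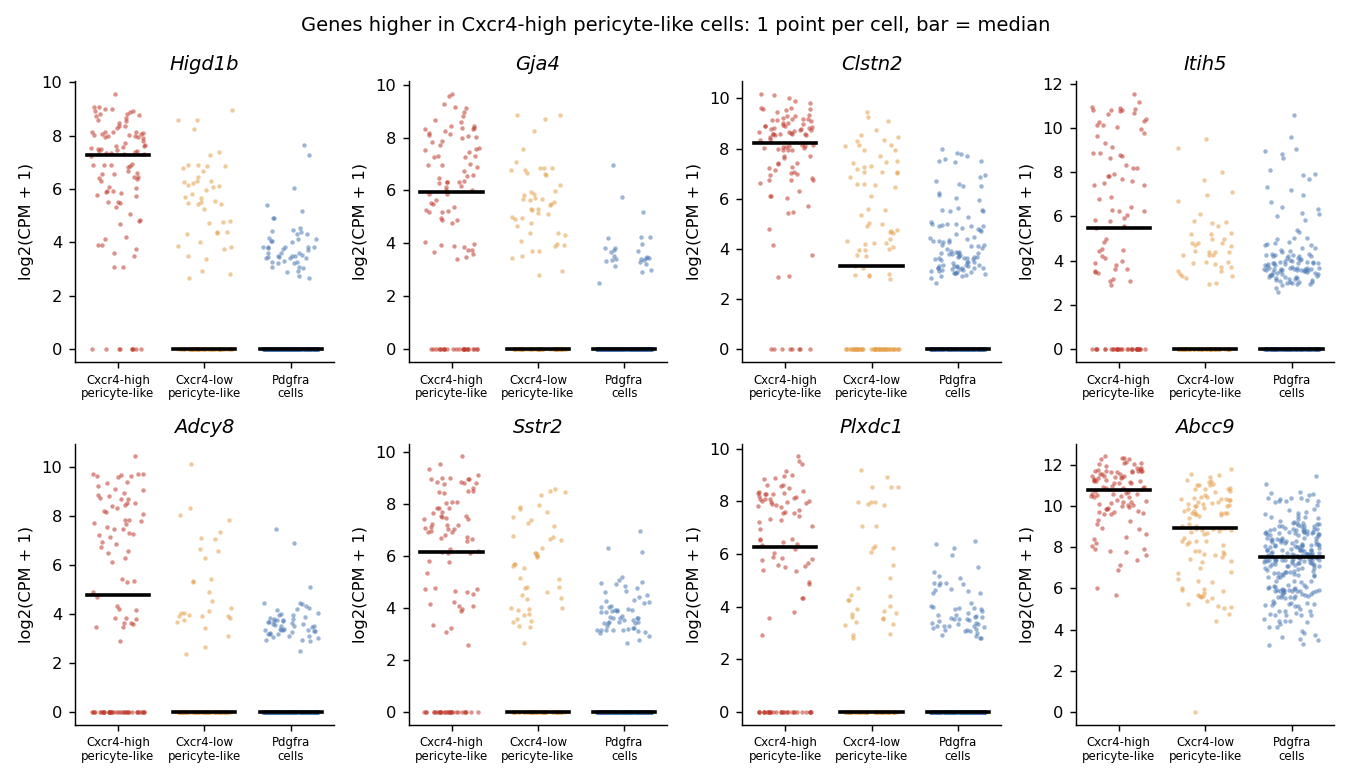
Log2 of CPM plus 1 per cell for Higd1b, Gja4, Clstn2, Itih5, Adcy8, Sstr2, Plxdc1 and Abcc9, with 1 point per cell and a bar at the median of each of the 3 sets. For the first 7 genes the bar of the Pdgfra cells is at 0 while that of the members is above it; Abcc9 was counted in all 100 members (median 1791 CPM).

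Promoters of these genes are shown because the genes were high in the same cells. They are the 250 bases before the start site in RefSeq annotation (assembly GRCm38.p6), 5′ to 3′ on the gene's strand. Clstn2 lies on the minus strand of chromosome 9 and its window is chr9:98033168-98033417. Sstr2 lies on the plus strand of chromosome 11, with the window chr11:113619077-113619326. Gja4 lies on the minus strand of chromosome 4, with chr4:127314040-127314289, and Itih5 on the plus strand of chromosome 2, with chr2:10153293-10153542. Capitals mark TGACGTCA (the cyclic AMP response element) in Clstn2 and Sstr2, and TGGGAA (a core motif of the Notch effector RBPJ) in Itih5. Gja4 held neither of them, nor ACGTG, the core of the hypoxia response element.
Clstn2: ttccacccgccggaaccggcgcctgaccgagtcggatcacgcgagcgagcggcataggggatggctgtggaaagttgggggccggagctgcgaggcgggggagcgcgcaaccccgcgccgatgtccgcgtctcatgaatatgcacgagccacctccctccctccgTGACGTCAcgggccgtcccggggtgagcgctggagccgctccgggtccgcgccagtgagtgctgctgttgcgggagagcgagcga
Sstr2: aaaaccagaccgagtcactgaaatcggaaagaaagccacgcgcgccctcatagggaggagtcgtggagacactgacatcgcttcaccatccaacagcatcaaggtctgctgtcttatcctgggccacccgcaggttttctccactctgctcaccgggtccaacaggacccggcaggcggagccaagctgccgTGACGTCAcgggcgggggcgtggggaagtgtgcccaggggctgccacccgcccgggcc
Gja4: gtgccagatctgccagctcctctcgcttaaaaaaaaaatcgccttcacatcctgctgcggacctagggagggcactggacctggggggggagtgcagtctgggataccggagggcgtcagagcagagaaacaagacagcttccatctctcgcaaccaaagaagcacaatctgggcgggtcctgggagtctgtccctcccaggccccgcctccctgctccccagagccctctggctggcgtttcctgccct
Itih5: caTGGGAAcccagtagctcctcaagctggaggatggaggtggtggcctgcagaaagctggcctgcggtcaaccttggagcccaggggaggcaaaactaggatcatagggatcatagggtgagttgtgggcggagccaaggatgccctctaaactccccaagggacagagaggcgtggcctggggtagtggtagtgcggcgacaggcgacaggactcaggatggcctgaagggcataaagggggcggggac
The capitals start 85 bases before the start site in Clstn2 and 58 in Sstr2, and in Itih5 they lie close to the far end of the window. Motifs were read on both strands, and TGACGTCA was picked after the sequences had been seen. It occurred in 508 of 32851 promoters of the table (1.55%), TGGGAA in 21.6% and ACGTG in 16.6%. Of the 25 genes with the largest ratio to Cxcr4-low cells 17 had a promoter in the table, and TGACGTCA was in 1, TGGGAA in 4 and ACGTG in 3 of them. For the 15 genes with the largest ratio to Pdgfra cells the table held 10 promoters of 8 genes, and the motifs were in 2, 4 and 1 of these. None of the 3 motifs contains another. These are matches of letters in short windows and say nothing about binding.

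Levels were next read across 4 bins of Cxcr4 among the pericyte-like cells: no count (49 cells), above 0 to under 100 CPM (54), 100 to under 500 (56) and 500 or more (44). Median totals per bin were 70731, 82990.5, 76699.5 and 78168 counts. Higd1b had summed levels of 26, 49.3, 102.3 and 253.9 CPM, so it differed within the members too and not only across the limit. Clstn2 had 53.3, 84.1, 227.4 and 428.4 CPM. Itih5 had 15.2, 41.1, 202.4 and 573.1 CPM, the widest spread of the 7 genes in this series of bins. Adcy8, Sstr2, Plxdc1 and Gja4 were each lowest in the cells without a Cxcr4 count and highest in the top bin. Gja4 went from 24.3 to 178.2 CPM between these ends, Sstr2 from 31.8 to 202.98, Plxdc1 from 9.95 to 206.96 and Adcy8 from 7.74 to 253.6. Other mural genes were flatter: Pdgfrb had 3637, 3064, 3750.4 and 4429 CPM, and Notch3 894.9, 891.1, 1099.6 and 1215. Acta2, smooth muscle actin, went down over the bins, at 839.4, 799.9, 243.5 and 114.7 CPM. Col14a1, a fibril-associated collagen, was lower in both member bins, at 358.7, 431.04, 118.9 and 25.3 CPM. As the bins are made from the rule's gene, this is a description.

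**Figure D3:**
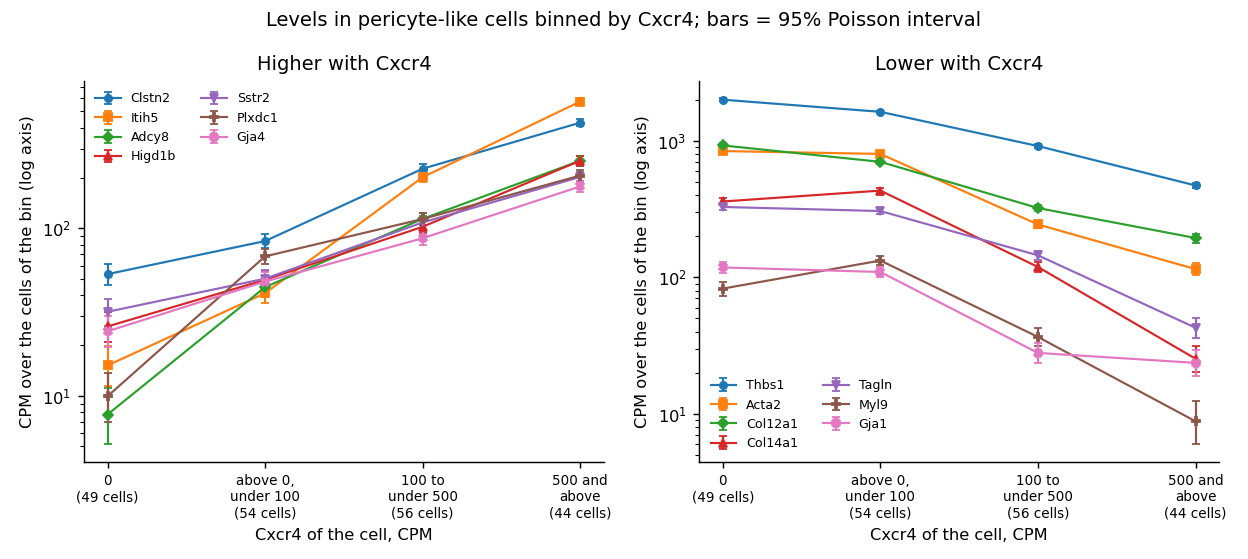
Summed CPM on a log axis in the 4 Cxcr4 bins of the pericyte-like cells (49, 54, 56 and 44 cells), with exact Poisson 95% intervals; genes higher in members on the left, genes lower in members on the right. Itih5 goes from 15.2 to 573.1 CPM over the bins and Acta2 from 839.4 to 114.7.

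Ion channels set the membrane potential by which mural cells respond to vasoactive signals. Abcc9 encodes the sulphonylurea receptor SUR2, the regulatory subunit of the vascular KATP channel, and Kcnj8 its pore. Abcc9 ran from 50.7 to 5463 CPM in members (median 1791), from 0 to 3546 in Cxcr4-low cells (median 497.5) and from 8.64 to 2873 in Pdgfra cells (median 180.9). The ranges overlapped throughout while the medians were far apart, and the log2 ratios were 1.22 and 2.71. Kcnj8 had medians of 307.4, 143.4 and 44.4 CPM, log2 ratios 1.03 and 2.40. Both genes lie next to each other on the minus strand of chromosome 6 (Kcnj8 chr6:142564837-142571614, Abcc9 chr6:142587862-142702315, GRCm38). Kcnk3, the background potassium channel TASK-1 of pulmonary artery smooth muscle, had a count in 87% of members, 61.2% of Cxcr4-low and 20.6% of Pdgfra cells, with log2 ratios of 1.09 and 3.99. Of 21 potassium channel genes, 6 had at least 10 CPM over all cells and were compared. A channel scarce in Pdgfra cells could pass this filter through the pericyte-like cells alone, so the counts are no result about the family. Of the 6 compared, 3 were higher against Cxcr4-low cells (Abcc9, Kcnk3, Kcnj8) and all 6 against Pdgfra cells, Kcnmb1 and Kcne4 among them. Without the mixed cells the first count was 0 of 6, with log2 ratios of 0.88 for Abcc9, 0.82 for Kcnk3 and 0.77 for Kcnj8, whereas all 6 stayed higher against Pdgfra cells.

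Gap junctions couple mural cells to each other and to endothelium. Connexin subunits separated the sets in both directions. Gjc1, connexin 45, had medians of 731.1 CPM in members, 122.8 in Cxcr4-low and 43.4 in Pdgfra cells, log2 ratios 1.35 and 3.51, and the first was 0.98 without the mixed cells. Gja1, connexin 43, was lower in members, with a summed level of 26.1 CPM against 112.95 and 245.5, log2 ratios -2.07 and -3.18. In the pericyte-like cells without a Cxcr4 count its summed level was 118.01 CPM, while the median cell had 19.02. The highest member reached 336.5 CPM, and the highest cells of the other sets 2877 and 3911. Gja5, connexin 40, was counted in 6 members, with 99.5% of its counts in 5 cells and one at 2024 CPM.

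Cyclic nucleotides relax mural cells. The subunits of soluble guanylate cyclase, the receptor of nitric oxide, were high in the members: Gucy1a3 had medians of 3538, 2013 and 501.4 CPM, and Gucy1b3 844.8, 423.8 and 106.5. Both were past 2-fold only against Pdgfra cells, with log2 ratios of 1.93 and 2.26, and had 0.71 and 0.74 against Cxcr4-low cells. Of 23 genes for cyclases, phosphodiesterases and their kinases, 8 were higher and 3 lower against Pdgfra cells. The others among the 8 included the cyclic GMP-inhibited phosphodiesterase Pde3a (1.69) and the cyclic GMP-dependent kinase Prkg1 (1.49). Against Cxcr4-low cells 1 was higher, Adcy8, and 1 lower, Pde7b, of the 23. Over all genes compared 1.88% were higher and 5.09% lower, so 1 gene each way says little about the list.

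Most receptors for vasoactive signals were under 2-fold in both comparisons, with median log2 ratios of 0.19 against Cxcr4-low cells and -0.18 against Pdgfra cells. Of 15 compared, 1 was higher against Cxcr4-low cells and 3 against Pdgfra cells, and none was lower in either (without the mixed cells of either set 2 and 5 were higher). The one common to both was Cysltr1, the receptor of cysteinyl leukotrienes, at 68.7 CPM against 11.5 and 6.59. Members ran from 0 to 407.7 CPM around a median of 19.5, and 56% of them had a count against 23.3% and 16%. Over the Cxcr4 bins Cysltr1 stood at 7.74, 14.2, 38.7 and 109.3 CPM. Ednra, the endothelin receptor, and F2r, the thrombin receptor, had log2 ratios of 1.53 and 1.43 against Pdgfra cells and 0.58 and 0.47 against Cxcr4-low cells. S1pr3, a receptor of sphingosine 1-phosphate, had medians of 1710.5, 787.5 and 390.6 CPM in members, Cxcr4-low and Pdgfra cells. Rgs4, a regulator of G protein signalling like RGS5, had medians of 1627, 432.7 and 36.6 CPM. Its log2 ratio was 1.06 against Cxcr4-low cells (0.72 without the mixed cells) and 4.54 against Pdgfra cells.

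Several less familiar genes were also broad in the members. St6galnac3, a sialyltransferase, was counted in 75% of members, 35% of Cxcr4-low and 17.5% of Pdgfra cells, log2 ratios 1.90 and 3.40. Rims1, a scaffold of the presynaptic release site, was counted in 70%, 22.3% and 34.2% of cells, and its log2 ratio was larger against Cxcr4-low cells (2.82) than against Pdgfra cells (1.52), as its summed level was lowest in the Cxcr4-low set (5.87 CPM). Robo4, a Roundabout receptor best known from endothelium, followed the same order, at 59.5 CPM in members, 17.3 in Cxcr4-low and 30.1 in Pdgfra cells. It was counted in 67% of members. Serpina12, the serpin vaspin, was counted in 61%, 26.2% and 18.3% of cells, and Grap, an adaptor protein related to GRB2, in 59%, 22.3% and 24.9%. Genes such as Tusc5, a regulator of glucose transporter traffic, and Aoc3, a vascular amine oxidase, instead marked both pericyte-like sets. Their log2 ratios were 4.14 and 4.10 against Pdgfra cells and 0.77 and 0.86 against Cxcr4-low cells.

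Notch signalling keeps mural cells in contact with endothelium, and NOTCH3 is its main mural receptor. Notch3 ran from 57 to 4750.5 CPM in members (median 1165), from 12.1 to 2781 in Cxcr4-low cells (median 843.7) and from 0 to 1501 in Pdgfra cells (median 76.4). Members and Cxcr4-low cells overlapped almost fully, with a log2 ratio of 0.36, and both lay above most Pdgfra cells (2.77 for the members). Of 11 Notch genes, 5 were higher against Pdgfra cells: the receptors Notch3 and Notch1 (1.13) and the target genes Hey2 (1.81), Heyl (1.68) and Hey1 (1.52). None of the 11 was past 2-fold against Cxcr4-low cells, where the median log2 ratio was 0.013. The ligand gene Jag1 had log2 ratios of -0.44 and 0.63, and Rbpj, the DNA-binding effector of the pathway, -0.27 and -0.45.

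Transcription factors of lung mesenchyme gave the same picture. None of 24 was past 2-fold between the pericyte-like sets (median 0.11). Against Pdgfra cells 4 were higher (Ebf1, Heyl, Foxs1 and Nr2f2) and 1 lower (Prrx1). Ebf1, a factor of mural and adipose lineages, had medians of 652.7, 351.8 and 20.2 CPM. Tbx5 and Foxf1, which pattern lung mesenchyme, were counted in every member, with medians of 855.9 and 203.03 CPM in members, 602.8 and 104.9 in Cxcr4-low cells and 503.9 and 139.5 in Pdgfra cells.

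Smooth muscle genes were low in the members. Of 8 vascular smooth muscle genes compared, none was higher and 6 were lower against Cxcr4-low cells (Mustn1, Myh11, Lmod1, Acta2, Myocd and Tagln), with a median log2 ratio of -1.91. Against Pdgfra cells 5 were lower, with a median of -1.27. Acta2 ran from 0 to 2083 CPM in members (median 70.1), from 10.7 to 4830.2 in Cxcr4-low cells (median 261.02) and from 7.29 to 4378 in Pdgfra cells (median 402.8). The sets overlapped, and the upper ends and medians of the other 2 sets were higher. Its summed levels of 188.8, 816.3 and 831.4 CPM gave log2 ratios of -2.11 and -2.13. Tagln, transgelin, had medians of 25.3, 54.7 and 138.9 CPM and log2 ratios of -1.62 and -1.55, and Myl9, the regulatory light chain of smooth muscle myosin, -2.13 and -2.26. Acta2, Tagln and Myl9 stayed past 2-fold in both comparisons under every alternative run. Myh11, the smooth muscle myosin heavy chain, was not a broad difference: 5 cells held 80.3% of the counts of the Cxcr4-low set, its highest cell had 4219 CPM, and 46% of members had a count against 40.8% of Cxcr4-low cells. Lmod1 and Mustn1 were likewise carried by few cells, with 82.9% and 86.2% of the Cxcr4-low counts in 5 cells, and the log2 ratio of Lmod1 was -0.83 inside the columns low in Sftpc.

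The general contractile machinery differed less. Of 24 actin, myosin and tropomyosin genes 5 were lower against Cxcr4-low cells and none was higher, with a median of -0.34. Mylk, the myosin light chain kinase, had medians of 1251, 1463 and 1494 CPM, and Smtn, smoothelin, 431.02, 416.2 and 323.3. Neither passed 2-fold in either comparison. Des, the desmin gene often used for pericytes, had log2 ratios of 0.0053 and 0.37, and Cd248, endosialin, -0.063 and 0.27.

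**Figure D4:**
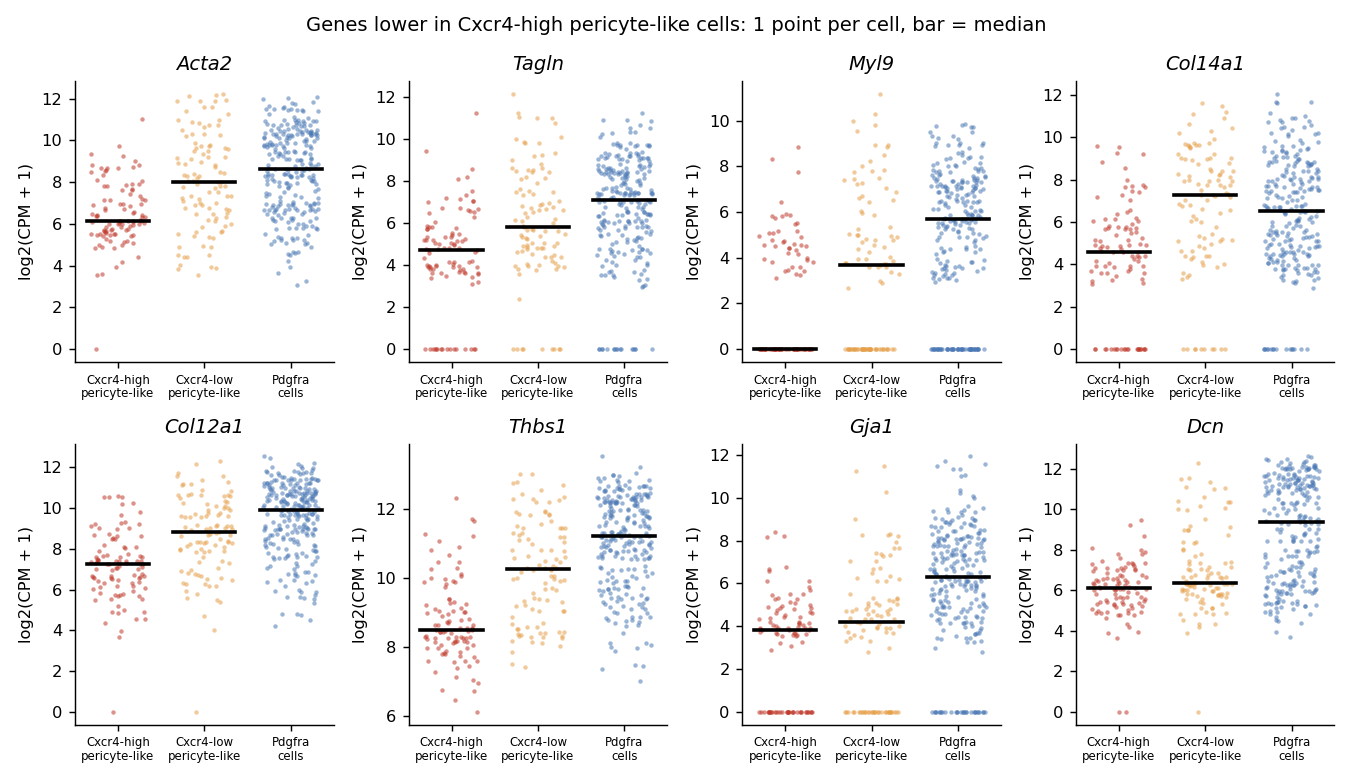
Log2 of CPM plus 1 per cell for Acta2, Tagln, Myl9, Col14a1, Col12a1, Thbs1, Gja1 and Dcn, with 1 point per cell and a bar at the median of each of the 3 sets. Median Acta2 is 70.1 CPM in members against 261.02 and 402.8, and median Thbs1 357.4 against 1228 and 2378, with wide overlap between cells.

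Fibroblast genes and interstitial matrix were low in the members. Of 11 fibroblast markers compared, 6 were lower against Cxcr4-low cells (Mfap4, Loxl1, Dpt, Mfap5, Dcn and Lum) and 8 against Pdgfra cells, with medians of -1.03 and -2.87, and none was higher. Without the mixed cells 3 of the 11 were lower against Cxcr4-low cells. Of 9 markers of adventitial fibroblasts, which surround larger vessels, 5 were lower against Cxcr4-low cells and 6 lower and 1 higher against Pdgfra cells, and of 9 alveolar fibroblast markers 3 were lower in each comparison. Without the mixed cells, 3 adventitial markers were lower against Cxcr4-low cells, and of the alveolar markers 1 was lower and 2 were higher. Of 29 collagens and matrix proteins, 12 were lower and none higher against Cxcr4-low cells (median -0.72), and 15 were lower and 2 higher against Pdgfra cells (median -1.20). Without the mixed cells the first count was 7 of 29. Col14a1 had a median of 23.1 CPM in members (0 to 757.9), 152.8 in Cxcr4-low cells (up to 3141) and 89.4 in Pdgfra cells (up to 4222). Members thus sat at the low end of a range shared by all sets, and the log2 ratios were -2.33 and -1.92. Col12a1, a second fibril-associated collagen, had medians of 151.7, 459.4 and 953.3 CPM, log2 ratios -1.57 and -2.19, and Tnc, tenascin C, 146.5, 290.3 and 1072 CPM, log2 ratios -1.24 and -2.47. Dcn, the small proteoglycan decorin, had medians of 67.8, 82.7 and 671.95 CPM. Its log2 ratio against Cxcr4-low cells was -1.84 and came to -0.66 without the mixed cells, and that of Eln, elastin, went from -1.24 to -0.78. The main fibrillar chains were closer: Col1a1 had log2 ratios of -0.29 and -0.87, Col1a2 -0.66 and -1.24, Col3a1 -0.96 and -1.46, and fibronectin, Fn1, -0.51 and -0.41.

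A few matrix genes went the other way. Col5a3, a chain of collagen V, and Postn, periostin, were the 2 genes higher against Pdgfra cells, with log2 ratios of 2.45 and 1.80 and of 0.19 and 0.57 against Cxcr4-low cells. Postn had a median of 3385 CPM in members, 2401 in Cxcr4-low and 333.9 in Pdgfra cells. The collagen IV chains that build the vascular basement membrane, Col4a1 and Col4a2, had medians of 3212 and 2545 CPM in members, 2342 and 1936 in Cxcr4-low and 1202 and 1008 in Pdgfra cells. With Nid2, nidogen 2, and Agrn, agrin, they were the 4 of 22 basement membrane genes higher against Pdgfra cells, where 5 were lower. Against Cxcr4-low cells 7 of the 22 were lower. Without cells rich in leukocyte, mesothelial or epithelial RNA 0 of the 22 were lower and 1 was higher.

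Genes of secreted signals were read by family, and most genes of each family were under 2-fold against Cxcr4-low cells. Thbs1, thrombospondin 1, an inhibitor of angiogenesis that also activates TGF-beta, ran from 68.5 to 5147 CPM in members (median 357.4), from 170.4 to 8371 in Cxcr4-low cells (median 1228) and from 127.5 to 11794 in Pdgfra cells (median 2378). The sets overlapped at shifted medians, and the log2 ratios were -1.29 and -2.03. Of 15 angiogenic signals 2 were higher and 4 lower against Cxcr4-low cells, and 2 higher and 8 lower against Pdgfra cells. Angpt2, angiopoietin 2, was at 5.44 CPM in members against 28.4 and 28.9, Vegfa had log2 ratios of -0.63 and -0.998, and Pgf, placental growth factor, was higher against Pdgfra cells only (1.98, with -0.19 against Cxcr4-low cells). Inhba, the activin A subunit, was counted in 14% of members at 2.78 CPM (1.76 to 4.17), against 67.8 and 62.7 CPM in the other sets. The log2 ratios were -4.19 and -4.07, and 5 cells held 82.3% of the Inhba counts of the Cxcr4-low set. It was 1 of 6 lower among 26 TGF-beta and BMP genes, with the BMP antagonist Grem1 (-1.85 and -3.55), the latent TGF-beta binding protein Ltbp1 (-1.78 and -3.05) and Bmp4 (-1.65 and -2.48). The Grem1 ratio to Cxcr4-low cells was -0.50 inside the columns low in Sftpc and -0.87 without the mixed cells.

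Growth factor, Wnt and guidance genes past 2-fold were mostly lower, while most genes of each list were under 2-fold against Cxcr4-low cells. Of 28 genes of the IGF, FGF, EGF and IL6 families 10 were lower and none higher against Cxcr4-low cells, a count of 5 lower and 2 higher without the mixed cells, and 14 lower and 1 higher against Pdgfra cells. Igf1 had medians of 212.3, 304.7 and 1845 CPM, and Igfbp5, an IGF-binding protein, log2 ratios of -2.29 and -2.78. The gene higher against Pdgfra cells was Hbegf, a ligand of the EGF receptor, at 371.999 CPM in the median member against 63.4. Its log2 ratio of summed levels was 1.30, and 0.80 inside the columns low in Sftpc, which is under 2-fold. Of 27 Wnt and Hedgehog genes 7 were lower against Cxcr4-low cells and 13 against Pdgfra cells, and the first count was 4 when the 5 highest cells of each gene and set were left out. Hhip, a Hedgehog target and inhibitor, was at 8.46 CPM in members, 45.6 in Cxcr4-low and 204.02 in Pdgfra cells, and its log2 ratio to Cxcr4-low cells went from -2.30 to -0.26 without the mixed cells. The ligand genes Wnt5a and Wnt4 were high in the members but under 2-fold, with log2 ratios of 0.95 and 0.93 against Cxcr4-low cells and 0.80 and 0.91 against Pdgfra cells, and Wnt5a stood at 344.1, 357.8, 531.8 and 878.8 CPM over the Cxcr4 bins. Of 35 guidance genes 13 were lower against Cxcr4-low cells, among them Slit3 at 53.9 against 283.1 CPM, and 1 was higher, Robo4. Against Pdgfra cells 16 were lower and 1 was higher. Slit3 stayed past 2-fold under every alternative run. The Slit2 ratio to Cxcr4-low cells went from -1.28 to -0.65 without the mixed cells. That of Sema5a went from -1.65 to -0.78 inside the columns low in Sftpc.

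Chemokines included the ligand of CXCR4 itself. Cxcl12 ran from 0 to 811.4 CPM in members (median 8.67), from 0 to 1289 in Cxcr4-low cells (median 15.1) and from 0 to 3862 in Pdgfra cells (median 83.1). Members and Cxcr4-low cells overlapped closely in their medians, while most Pdgfra cells lay higher. The log2 ratio was -2.97 against Pdgfra cells. Against Cxcr4-low cells it was -1.47 and came to -0.14 without the mixed cells, which ends the call. Cxcl14, a chemokine of fibroblasts, had log2 ratios of -2.45 and -3.82, and the median Pdgfra cell had 217.6 CPM against 12.8 in members. Ackr3, the scavenger receptor of CXCL12, was counted in 16% of members and 19.4% of Cxcr4-low cells, with log2 ratios of -5.41 inside and -0.30 outside the columns low in Sftpc, and -0.69 without the mixed cells. Cxcl2, a neutrophil chemokine, was past 2-fold higher in both comparisons (2.39 and 2.52), but it was counted in 10% of members with 98.3% of its counts in 5 cells, and both ratios were below 0 without the leukocyte-rich cells described below.

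**Figure D5:**
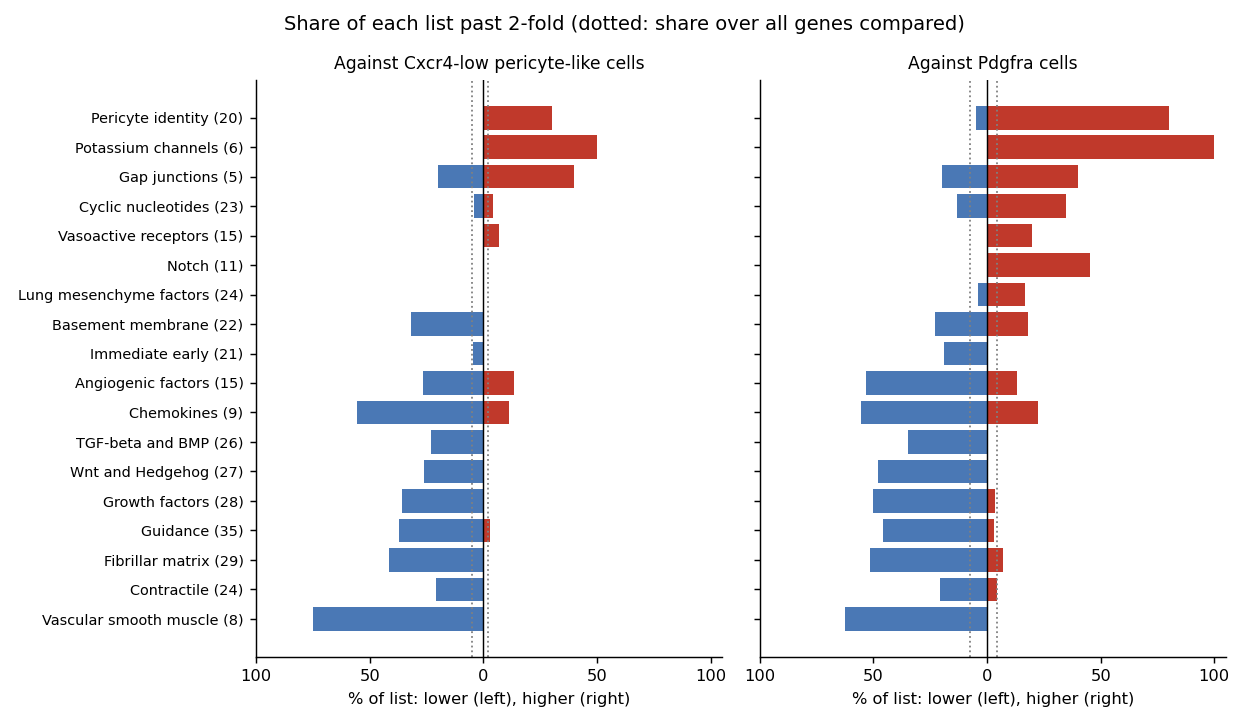
Share of the compared genes of 18 gene lists that were past 2-fold higher or lower in members against Cxcr4-low cells and against Pdgfra cells; dotted lines mark the shares over all 9829 genes (1.88%, 5.09%, 4.28% and 7.42%). The vascular smooth muscle list has 6 of 8 genes lower against Cxcr4-low cells, and the pericyte list 16 of 20 higher against Pdgfra cells.

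RNA of other cell types was present in some members and moved with part of the calls. The 12 leukocyte genes together had medians of 27.5, 26.7 and 19.3 CPM in members, Cxcr4-low and Pdgfra cells, and ranges of 0 to 5072, 0 to 579.1 and 0 to 2515. A sum of 500 CPM or more was found in 8 of 100 members (exact interval 3.52% to 15.2%), 1 Cxcr4-low cell (0.971%) and 2 Pdgfra cells (0.778%). All 5 leukocyte genes compared were higher in members, with Ptprc, the leukocyte phosphatase CD45, at 60.7 CPM against 2.53 and 5.89, though it was counted in 14% of members. Laptm5, a lysosomal protein of blood cells, had 136.4 CPM against 8.17 and 12.6, with 85.9% of its member counts in 5 cells. Without those cells none of the 5 was higher and the medians were -0.062 and 0.19. Macrophage genes were also among the largest ratios to Cxcr4-low cells: Chil3, a macrophage lectin, was at 358.1 CPM with 87.8% of its counts in 5 cells, and Mpeg1, perforin-2, at 175.9 CPM with 89.8%. Of the genes higher against Cxcr4-low cells 58.4% stayed past 2-fold without the leukocyte-rich cells, and of the 500 lower ones 96.8% did. Higd1b, Gja4, Clstn2, Itih5, Adcy8, Sstr2 and Plxdc1 were among those that stayed.

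Endothelial markers were read because pericytes touch endothelium. The 12 endothelial genes together had medians of 163.7, 101.6 and 33.7 CPM, with maxima of 4829, 4834 and 5675. Vwf, Cdh5 and Pecam1 were higher and Kdr and Plvap lower in members against Cxcr4-low cells, but Cdh5, VE-cadherin, was counted in 12% of members with 94.2% of its counts in 5 cells. The Kdr ratio went from -2.74 to -0.51 without the mixed cells. When the 5 highest cells of each gene and set were left out, 1 of the 8 compared was higher and 1 lower. Flt1, VEGF receptor 1, and Esam, an adhesion molecule, were higher against Pdgfra cells and broader. Flt1 was counted in 63%, 55.3% and 37.4% of cells and Esam in 56%, 38.8% and 13.2%. The 6 mesothelial genes reached 500 CPM in 0 of 100 members (exact interval 0 to 3.62%), in 8 Cxcr4-low cells and in 3 Pdgfra cells. Epithelial and surfactant genes reached 4000 CPM in 3, 7 and 9 cells. Of the 500 genes lower against Cxcr4-low cells, 68% stayed past 2-fold without cells rich in leukocyte, mesothelial or epithelial RNA. Of the genes higher against Cxcr4-low cells 55.1% stayed. Against Pdgfra cells 83.6% of the higher and 94.4% of the lower genes stayed. What part of the calls such RNA gave was not tested.

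The members also varied among themselves. Once a trend of variance on mean had been taken out, the most variable genes of the 87 members deep enough for thinning were Chil3, Vcam1, Ptgs2, H2-Ab1, Gja5, Lyz2, C3, Ccl6, Mpeg1 and Gpnmb. Chil3, Lyz2, Ccl6 and Mpeg1 are macrophage genes, and H2-Ab1 is a class II histocompatibility gene. Vcam1, a vascular adhesion molecule, reached 2761 CPM in one member while the median was 0, and Ptgs2, the inducible cyclooxygenase, reached 4293 CPM at a median of 32.1. For each of the 10 genes, 5 cells held 69.5% to 100% of the thinned counts. At least 5 genes of G2 phase and mitosis were counted in 6% of members, 3.88% of Cxcr4-low and 10.1% of Pdgfra cells. At equal depth these were 2.30%, 2.38% and 6.17%.

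Outside the pericyte-like cells, 6 Pdgfra cells had Cxcr4 at 100 CPM or more. Gja4 was counted in 2 of them, Higd1b in 2, Sstr2 in 2, Adcy8 in 1 and Itih5 in 1, while Notch3 and Clstn2 were counted in 6 and 5. The leukocyte sum was at 500 CPM or more in 2 of the 6, with Laptm5 counted in 4 and Ptprc and Tyrobp in 2 each. Of the endothelial genes, Vwf was counted in 4 (up to 2609 CPM), Pecam1 in 2 and Cdh5 in 1.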

How the data were processed

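The data were 460 single-cell libraries of mouse CAFs, made by sonication and ligation per the labels' protocols. The authors deposited 1 table of whole-number molecular barcode counts per gene and cell (48440 genes), used as deposited. Alignment with STAR, counting with HTSeq and the mm10 build are named per the submitters' processing notes; how reads became molecular barcode counts is not given in the sources used here. Symbols came from GENCODE vM21 (GRCm38), in which 48058 gene identifiers were matched; of the genes behind each of 119 repeated symbols, the one with most counts kept the symbol. Members, gene lists and comparisons were chosen with earlier results of these data known.

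CPM were computed per cell, and counts were summed per set. Genes with at least 10 CPM over all cells were compared by log2 ratio with 1 CPM added, called past 2-fold, with exact Poisson and Clopper-Pearson intervals (95%). No animal is named, so no test was possible. Total counts per cell ran from 25029 to 240496. PCR and capture noise is not in these intervals, which cover counting error only. Doublets were kept and no doublet caller was run. No 2 columns were identical. Depth was equalised by thinning to 56586 counts where stated. Rgs5, Pdgfra and Cxcr4 were left out as findings. Named genes were the 25 largest and 15 smallest ratios to Cxcr4-low cells and the 15 largest and smallest to Pdgfra cells, each with a count in at least 25% of the higher set, the highest and most extreme members of each list, and the 10 most variable genes within members; other genes named within a list were chosen after their values were seen. Promoters came from RefSeq (GRCm38.p6). Some items are not reported here. The steps were tested on simulated data. Python 3.11.15 was used with pandas 2.3.3 and numpy 2.4.6, figures were drawn with matplotlib 3.10.9, and intervals and trends came from scipy 1.17.1 and statsmodels 0.14.6. TMM scaling, an alternative, used edgeR 4.0.16 (R 4.3.3). Other alternatives changed the filter, the added CPM, the fold limit, the Cxcr4 limit, the scaling, the depth and the cells left out.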

Additional observations from a re-analysis of the deposited data

How the results depend on the processing

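The shares of compared genes past 2-fold are given in the order higher and lower against Cxcr4-low cells, then higher and lower against Pdgfra cells, and were 1.88%, 5.09%, 4.28% and 7.42%. The limits set moved the shares or the number of genes behind them: 0.854%, 3.84%, 3.99% and 7.17% of 4214 genes with at least 50 CPM over all cells, 3.27%, 5.31%, 4.05% and 5.59% of 29046 genes with no filter on low counts, 6.02%, 10.1%, 8.96% and 13.4% past 1.5-fold, and 0.712%, 2.58%, 2.12% and 3.84% past 3-fold. Inside the columns low in Sftpc 6.71% of genes were higher against Cxcr4-low cells, and members made up 26.8% of those cells against 21.7% of all. Without the 5 highest cells of each gene and set, an alternative chosen after seeing the data, 11.4% were lower against Pdgfra cells. Scaling by TMM gave 1.84%, 5.14%, 4.04% and 7.87%. Of the ratios of genes named in the text 64.5% were past 2-fold, 73.3% of those under every alternative run, and 5 of those past 2-fold changed sign under at least 1 alternative. Of the 91 ratios under 2-fold, 21 changed sign under at least 1 alternative. Without cells with a count of Ptprc, Pecam1, Cdh5 or Epcam, the log2 ratio to Cxcr4-low cells was -0.39 for Laptm5 and -1.14 for Cxcl2, and that to Pdgfra cells -0.97 for Cxcl2. Inside the columns low in Sftpc it was 0.24 for Lmod1 against Pdgfra cells. 3 alternatives chosen after seeing the data gave further changes of sign. Without leukocyte-rich cells, the ratios to Cxcr4-low cells were -0.16 for Laptm5 and -1.81 for Cxcl2, and to Pdgfra cells -1.17 for Cxcl2 and -0.30 for Ptprc. Without cells rich in leukocyte, mesothelial or epithelial RNA they were -1.15 for Cxcl2, and -1.20 for Cxcl2 and -0.26 for Ptprc. Without the 5 highest cells of each gene and set Cxcl2 had -0.060 and -0.69. The cause was not tested beyond the cells left out. No paired analysis was possible because the cells carry no replicate numbers shared between groups. With 1 sample, intervals cover counting error only, and differences between animals, tumours or sorts cannot be told apart from differences between cells.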

Other observations

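Metabolic genes differed little. In a list of 22 nuclear genes for oxidative phosphorylation 2 were higher in both comparisons, Higd1b and Cox4i2. The other 20 were under 2-fold against Cxcr4-low cells. Both higher genes were already counted among the pericyte genes above, so they are not a separate metabolic result. Higd1b was listed here as a mitochondrial protein of the HIG1 domain family, and Cox4i2 is a cytochrome oxidase subunit of hypoxic and lung vascular cells. Without the mixed cells, whose Rgs5 and Pdgfra counts were within 2-fold of each other, only Higd1b stayed past 2-fold against Cxcr4-low cells, and Cox4i2 came to 0.75. Of 25 hypoxia and glycolysis genes 1 was higher and 1 lower against Cxcr4-low cells (Pdk1 and Hk2), and 3 were higher and 3 lower against Pdgfra cells. Over all genes compared 1.88% were higher and 5.09% lower against Cxcr4-low cells, so 1 gene each way is no result about the family. Ndufa4l2, a mitochondrial protein of pericytes and hypoxic cells, had log2 ratios of 0.96 and 2.87 and a median of 163.6 CPM in members. Of 14 interferon and class I genes none was past 2-fold against Cxcr4-low cells. Of 21 immediate early genes 1 was lower against Cxcr4-low cells and 4 against Pdgfra cells, and of 12 heat shock genes 1 and 1, with Hspa1a and Hspa1b higher against Pdgfra cells. With lists of this size, 1 lower gene is near the shares over all genes (5.09% and 7.42%).

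Among genes by which cells attach to and remodel matrix, 5 of 15 integrin subunits were lower and 1, Itga6, a laminin receptor subunit, was higher against Cxcr4-low cells, counts of 2 and 0 without the mixed cells. Of 22 proteases and inhibitors 4 were lower against Cxcr4-low and 10 against Pdgfra cells, and none was higher. Of 18 genes of cholesterol and lipid handling 1 was higher in both comparisons, the cholesterol exporter Abcg1, with log2 ratios of 2.11 and 2.56. Over all genes 1.88% and 4.28% were higher, so 1 gene is no result about the list. Abcg1 was counted in 67% of members, and 5 cells held 57.7% of its member counts. Without cells rich in leukocyte, mesothelial or epithelial RNA its ratio to Cxcr4-low cells was 0.96, under 2-fold.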
